A study of Mus musculus with 8 samples.

Results

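The genes described here are germline and meiosis genes that are commonly silenced in somatic cells, chosen as a list of 36 symbols. The table of RPKM values (reads divided by the length of the transcript and the depth of the library) held 35 of them among its 24346 genes. The symbol *Meioc* was not found. Its synonym in RefSeq, *Gm1564*, was listed at 0.0223 to 0.0922 RPKM and is not counted among the 35. DNA methylation was not measured in these libraries, so the list describes RNA only.

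RNA was sequenced from mouse bone marrow mesenchymal stem cells (MSCs), adherent stromal cells able to become osteoblasts, adipocytes or chondrocytes. All cells had a C57BL/6 background and were at passage 4. The 4 groups, of 2 libraries each, were undifferentiated WT, undifferentiated *Dnmt3l* KO, differentiating WT and differentiating *Dnmt3l* KO MSCs. WT mice were *Dnmt3l*+/+ littermates of the KO mice, which came from intercrosses of mice heterozygous for the tmEnls allele so the mutation is present in every cell of the animal and not in MSCs alone. The mice were females 8 to 16 weeks old, and for each experiment the MSCs of 3 mice per genotype were mixed. Undifferentiated cells grew in medium with 20% serum. Differentiating cells had spent 3 days in osteogenic medium with 10% serum, 0.1 µM dexamethasone, 10 mM glycerophosphate and 50 µM ascorbic acid phosphate. Whether replicate libraries were made from separate cultures or mixes is not given in the sources used here, so the p-values measure only the spread between these libraries.

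Germline genes of this kind act in germ cells and early embryos, in the piRNA pathway that silences transposons, in pairing and recombination of chromosomes at meiosis, and in the making of sperm and eggs. In somatic cells many of them are kept off by methylation of CpG-rich promoters, together with repressors such as the E2F6 and MGA complexes, which bind E2F-type sites and E-boxes. DNMT3L has no catalytic activity of its own and stimulates the de novo methyltransferases in germ cells and embryonic cells. The comparison of KO with WT MSCs asks whether RNA of these genes differs in cells derived from mice without DNMT3L.

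Promoter sequence was taken from RefSeq on the build GRCm38.p6, from 250 bases before to 50 bases after each start, and 30 members had an entry. For genes with more than 1 entry, that with the most CpG was used for the CpG count, and a motif was counted if any entry held it. The members' promoters held a median of 19.5 CpG dinucleotides (range 7 to 48), against a median of 8 over 27025 genes. The ratio of observed to expected CpG had a median of 0.706 in the members and 0.413 over all genes. The E2F-type letters TCCCGC, searched on both strands, were in the promoters of 14 members (46.7%) and of 22.0% of all genes. The E-box CACGTG, which reads the same on both strands, was in those of 15 members (50.0%) and of 8.09% of all genes. Both motifs were found in 8 members: *Ddx4*, *Mael*, *Sycp1*, *Sycp3*, *Syce2*, *Hormad1*, *Stag3* and *Zp3*. The motifs can share at most 1 base, and a match describes letters and not a bound site.

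The following stretches are the 150 bases before the start of 6 members, ending before any annotated exon of the gene, 5′ to 3′ on the strand of the gene. They show 3 members with low levels in MSCs (*Hormad1*, *Sycp1*, *Mael*), 1 whose RNA rose on induction in both genotypes (*Dmc1*), 1 that rose in KO cells (*Zp3*) and 1 that was lower in KO cells (*Piwil4*). Capitals mark TCCCGC or its reverse complement GCGGGA, and CACGTG.
Hormad1, chr3:95559527-95559676, plus strand: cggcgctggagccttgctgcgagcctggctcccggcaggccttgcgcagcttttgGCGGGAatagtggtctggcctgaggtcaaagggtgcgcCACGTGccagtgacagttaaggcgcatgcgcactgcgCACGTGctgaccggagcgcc
Sycp1, chr3:102936101-102936250, minus strand: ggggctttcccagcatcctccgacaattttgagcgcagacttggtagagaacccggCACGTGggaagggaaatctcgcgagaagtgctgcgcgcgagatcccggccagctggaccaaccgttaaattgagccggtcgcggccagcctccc
Mael, chr1:166238748-166238897, minus strand: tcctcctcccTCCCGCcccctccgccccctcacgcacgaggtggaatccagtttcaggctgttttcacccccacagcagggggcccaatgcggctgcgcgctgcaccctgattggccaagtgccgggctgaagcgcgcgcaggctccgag
Dmc1, chr15:79605110-79605259, minus strand: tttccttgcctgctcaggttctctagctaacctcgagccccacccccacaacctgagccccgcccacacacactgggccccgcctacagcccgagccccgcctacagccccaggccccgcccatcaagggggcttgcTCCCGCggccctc
Zp3, chr5:135979949-135980098, plus strand: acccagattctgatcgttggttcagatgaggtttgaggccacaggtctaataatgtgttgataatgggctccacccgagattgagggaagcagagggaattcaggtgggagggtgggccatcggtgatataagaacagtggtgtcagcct
Piwil4, chr9:14740734-14740883, minus strand: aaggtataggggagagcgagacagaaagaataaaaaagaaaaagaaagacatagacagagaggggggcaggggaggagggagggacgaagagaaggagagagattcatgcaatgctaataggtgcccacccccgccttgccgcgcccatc
The *Hormad1* stretch held 1 E2F-type match and 2 E-boxes among 14 CpG, and the *Sycp1* stretch 1 E-box among 14 CpG. The *Mael* and *Dmc1* stretches held 1 E2F-type match each, with 12 and 8 CpG. The *Zp3* and *Piwil4* stretches held neither motif and had 3 and 5 CpG. Since they end before annotated exons, the *Mael*, *Zp3* and *Piwil4* stretches leave out the 3, 6 and 61 bases next to the RefSeq start. Both motifs of *Zp3*, the E-box of *Mael* and the E2F-type match of *Sycp1* lie in parts of the promoter entry not printed here.

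**Figure D1:**
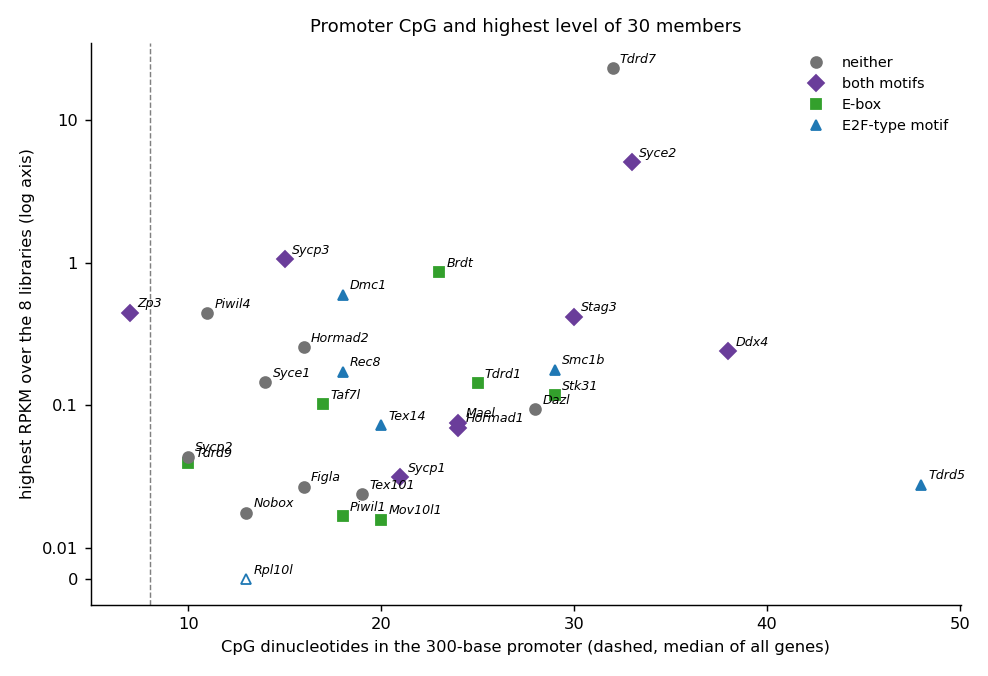
CpG dinucleotides in the 300-base promoter (x axis) against the highest RPKM over the 8 libraries (y axis, log scale) for the 30 members with a promoter entry; symbols give the motifs held, the open symbol is listed at 0, and the dashed line is the median of all genes, 8 CpG. Members above 0.1 RPKM in all libraries and members at 0.1 RPKM or below in all of them overlap in CpG count, at 11 to 33 and 10 to 48.

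The 6 members with an entry that were above 0.1 RPKM in all 8 libraries had a median of 26.5 CpG, and the 14 members above it in no library a median of 19.5. The E-box was in 4 of those 6 and in 6 of those 14. The highest CpG count, 48, belonged to *Tdrd5*, which did not exceed 0.0276 RPKM. For *Tdrd5* and *Ddx4* the bases after the start were not found in a GENCODE transcript of the gene, while the entries of the other 28 members matched.

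The libraries held 48.1 to 67.0 M scaled reads, estimated from the size of 1 read in low values of 674 single-transcript genes, with replicate 1 of differentiating WT the deepest. For 25 members the values in every library were whole multiples of what 1 read is worth, within 0.03 reads, and the reads behind those members are given below. *Dnmt3l* was listed at 0 in the 4 KO libraries, at 1.56 and 1.09 RPKM in undifferentiated WT and at 0.845 and 0.830 RPKM in differentiating WT libraries. The paper places the WT reads of this gene in its later exons only. It reports no detectable canonical DNMT3L protein in MSCs, so these RPKM values do not stand for that protein. The MSC marker *Thy1* was between 61.2 and 90.0 RPKM in all libraries, and the lymphocyte markers *Cd3e* and *Ms4a1* were listed at 0 in all.

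Most of the list was silent or close to it, but not all. Above 0.1 RPKM, the limit used here for a detected gene, 9 members were found in all 8 libraries, 10 in some and 16 in no library. In both libraries of a group, 13 of 35 members were detected in undifferentiated WT, 11 in undifferentiated KO, 12 in differentiating WT and 13 in differentiating KO MSCs. These are 31.4% to 37.1% of the members, against 58.7% to 60.7% of all genes in the table. Within a state, the number detected differed by at most 2 between the genotypes, and the members behind it were not all the same. The members' median level lay between 0.0444 and 0.0695 RPKM in every library. *Tdrd7* and *Syce2* were the 2 members above 1 RPKM in all libraries, and *Tex15* and *Sycp3* passed that level in some.

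**Figure D2:**
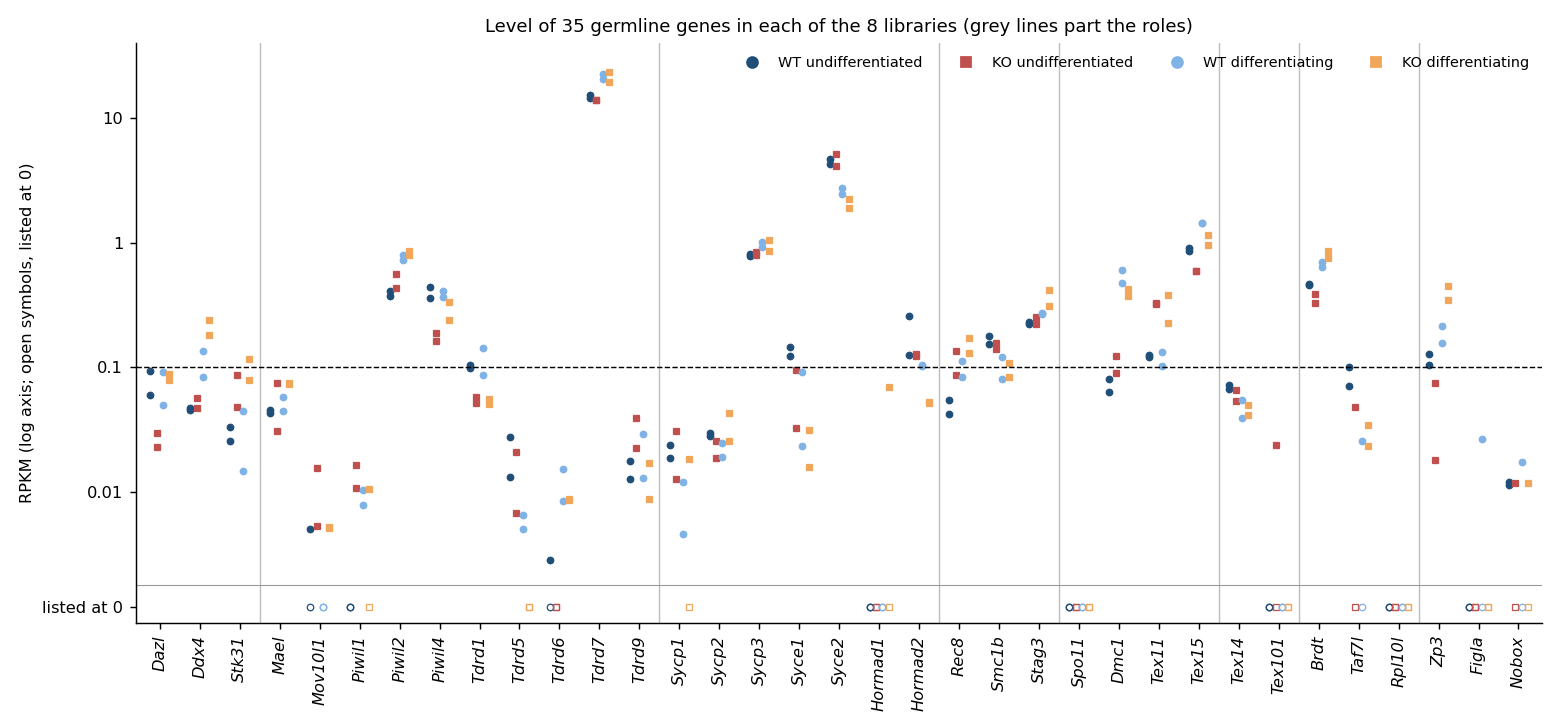
RPKM (log axis) of the 35 members in each of the 8 libraries, with genes in the order of their roles and the dashed line at 0.1 RPKM; open symbols are values listed at 0. Most members lie below the line in every group, while Tdrd7 and Syce2 stay above 1 RPKM.

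The 2 members listed at 0 in all libraries were *Spo11*, the enzyme that makes the breaks that start meiotic recombination, and *Rpl10l*, a ribosomal protein of the male germ line. A further 3 were above 0 in a single library: *Hormad1*, a protein of the meiotic chromosome axis (0.0695 RPKM in differentiating KO replicate 2), *Tex101*, a surface protein of sperm cells (0.0237 RPKM, 1 read, undifferentiated KO replicate 2), and *Figla*, an oocyte transcription factor (0.0268 RPKM, 1 read, differentiating WT replicate 1). An exact 0 in values of this kind can be a failed estimate, so these genes are described as listed at 0. Where reads were recovered, 12 members had at most 10 reads in every library.

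Among the germ cell RNA-binding genes, *Dazl*, which controls translation in germ cells, was between 0.0229 and 0.0934 RPKM, and the 2 undifferentiated KO libraries were the lowest. *Stk31*, a kinase-domain protein of spermatogonia, was between 0.0147 and 0.118 RPKM. *Ddx4*, the germ cell helicase also known as VASA, reached 0.240 RPKM in differentiating KO MSCs and is described with the response to induction.

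The piRNA group held both the highest member and many of the lowest. *Tdrd7*, a Tudor protein of germ cell granules that is also expressed outside the germ line, was at 14.3 and 15.3 RPKM in undifferentiated WT, 13.8 and 13.8 in undifferentiated KO, 20.5 and 22.3 in differentiating WT and 23.2 and 19.2 in differentiating KO libraries. The differentiating libraries lay above all undifferentiated ones, and the genotypes overlapped in differentiating cells, while both undifferentiated KO libraries were below both undifferentiated WT libraries. *Piwil2*, a PIWI protein that binds piRNAs, was at 0.371 and 0.409, 0.431 and 0.564, 0.800 and 0.726, and 0.855 and 0.796 RPKM in the same order of groups, from 86 to 253 reads. It was higher in all differentiating than in all undifferentiated libraries. *Piwil4* was above 0.1 RPKM in all libraries and *Tdrd1* in 2, and both are described with the genotype. The remaining genes of this group stayed low, since *Mael*, *Mov10l1*, *Piwil1*, *Tdrd5*, *Tdrd6* and *Tdrd9* did not exceed 0.1 RPKM in any library, and *Mov10l1*, an RNA helicase needed for piRNA formation, had at most 3 reads.

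In the synaptonemal complex group, *Syce2*, a central element protein, was at 1.90 to 5.09 RPKM and *Sycp3*, a lateral element protein, at 0.775 to 1.05 RPKM. Both overlap a more abundant gene on the opposite strand, *Gcdh* (10.5 to 20.4 RPKM) and *Chpt1* (17.8 to 24.3 RPKM). The libraries were strand-specific, but the strand setting of the quantification is not given in the sources used here, so a part of these reads may belong to the overlapping gene. In all, 16 members overlap another annotated gene. Among them, *Piwil4* and *Tex11* each overlap a pseudogene and noncoding genes on the opposite strand, whose levels are not given here, so the same limit holds for them. *Hormad2* was between 0.0522 and 0.256 RPKM and *Syce1* between 0.0160 and 0.145 RPKM, while *Sycp1* and *Sycp2* stayed at or below 0.0434 RPKM. Of the meiotic cohesin subunits, *Stag3* was at 0.221 to 0.419 RPKM, *Smc1b* at 0.0810 to 0.178 RPKM and *Rec8* at 0.0421 to 0.171 RPKM. *Tex14*, needed for the bridges between germ cells, was at 0.0390 to 0.0723 RPKM. *Taf7l*, a testis form of a general transcription factor subunit, was at 0 to 0.101 RPKM with at most 9 reads, and the oocyte factor *Nobox* did not exceed 0.0176 RPKM.

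KO was compared with WT in a linear model fitted in limma to log2(RPKM + 0.1) of the 15342 genes whose mean reached 0.1 RPKM, of which 15 were members. The other 20 members were too low to be tested. *Ddx4*, *Dmc1*, *Hormad2*, *Rec8*, *Smc1b* and *Zp3* had a group mean under 0.1 RPKM, so they passed this minimum through the groups in which they were higher. A gene was called when its log2 fold change was above 1 or below -1 with a Benjamini-Hochberg adjusted p under 0.05.

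No member was called between the genotypes. In undifferentiated MSCs 0 of 15 members were called, against 1.7% of all tested genes, and in differentiating MSCs 0 of 15, against 3.3%. Over the mean of both states 0 of 15 were called, against 0.945%. At an unadjusted p under 0.05 there were 4, 5 and 4 members. The share of all genes at that limit was not counted, and it is no lower than the adjusted shares that follow. Without a limit on the fold, 3 of 15 members had an adjusted p under 0.05 in undifferentiated cells, against 32.2% of all genes, 3 of 15 in differentiating cells, against 40.7%, and 3 of 15 over both states, against 32.8%. The median log2 fold change of the 15 was 0.03, -0.02 and -0.03, against -0.00, -0.01 and -0.01 over all tested genes.

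**Figure D3:**
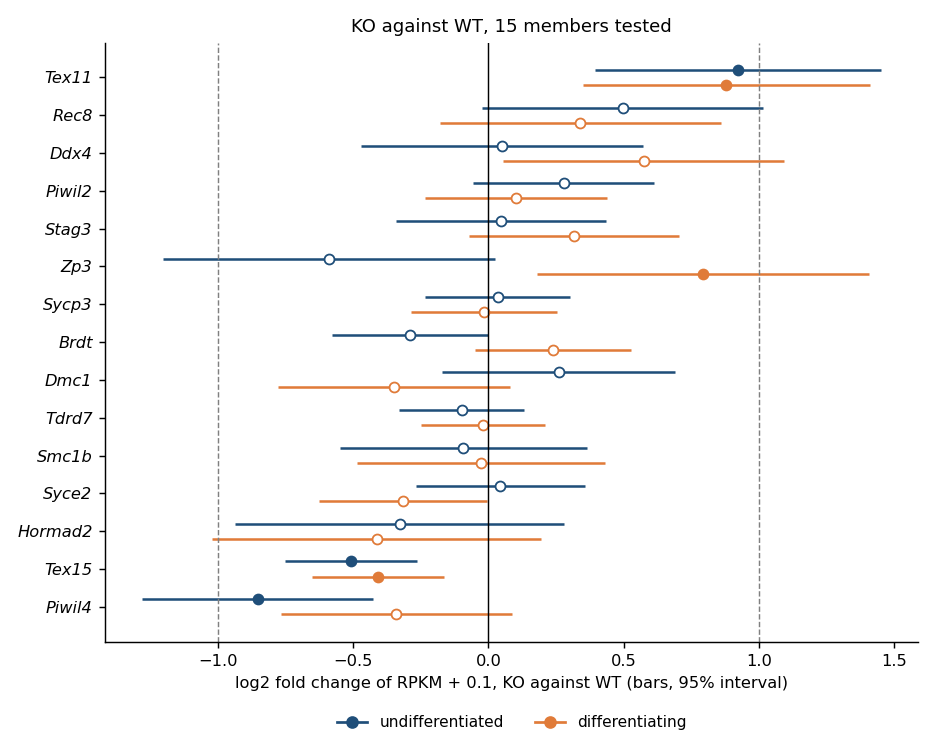
Log2 fold change of RPKM + 0.1 in KO against WT MSCs for the 15 members tested, in undifferentiated and differentiating cells, with 95% intervals from limma; filled points have an adjusted p under 0.05 and dashed lines mark the fold limit. Tex11 is to the right of 0 in both states and Tex15 and Piwil4 to the left, with all points inside the limit.

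*Tex11* was the tested member with the highest KO values relative to WT. It encodes a protein needed for crossovers in male meiosis and lies on the X chromosome (chrX:100838648-101059667, minus strand, GRCm38). It was at 0.127 and 0.121 RPKM in undifferentiated WT, 0.320 and 0.331 in undifferentiated KO, 0.132 and 0.102 in differentiating WT and 0.228 and 0.384 in differentiating KO libraries. All 4 KO libraries were above all 4 WT libraries. The values stand for 16 to 27 reads in WT and 35 to 58 reads in KO libraries. The group means differed 2.62-fold in both states. On the scale with 0.1 added, the log2 fold change was 0.92 (95% interval 0.39 to 1.45, adjusted p = 0.023) in undifferentiated and 0.88 (0.35 to 1.41, adjusted p = 0.022) in differentiating cells, under the limit of 1. With 0.01 added in place of 0.1 it was 1.32 and 1.28 and *Tex11* was called in both states. Without replicate 1 of differentiating KO it was 1.16 in differentiating cells and was called as well. Over the mean of both states the log2 fold change was 0.90 (adjusted p = 0.0086), with adjusted p of at most 0.036 under every alternative run. Within the undifferentiated state alone, leaving out any 1 of the 4 libraries compared gave adjusted p from 0.080 to 0.097, and within the differentiating state it gave 0.051 to 0.10 without either WT library or replicate 2 of KO. A fit of the differentiating libraries alone gave an adjusted p of 0.081.

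*Piwil4*, a nuclear PIWI protein of fetal male germ cells that directs DNA methylation to transposons, was lower in KO libraries. It was at 0.359 and 0.440 RPKM in undifferentiated WT, 0.162 and 0.190 in undifferentiated KO, 0.367 and 0.407 in differentiating WT and 0.334 and 0.240 in differentiating KO libraries. All 4 KO libraries were below all 4 WT libraries, with 43 to 60 reads in WT and 19 to 41 in KO. The log2 fold change was -0.85 (95% interval -1.28 to -0.43, adjusted p = 0.015) in undifferentiated cells. In differentiating cells it was -0.34 (-0.77 to 0.09), which missed the threshold (adjusted p = 0.17). The difference between the states did not pass the test (interaction 0.51, adjusted p = 0.15). With 0.01 added, the fold change in undifferentiated cells was -1.14 and was called. Leaving out replicate 2 of undifferentiated WT or either undifferentiated KO library gave adjusted p from 0.053 to 0.080.

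*Tex15*, a large protein of meiotic recombination that also acts in piRNA-directed silencing, was the member with the most reads among those recovered (233 to 793). It was at 0.904 and 0.854 RPKM in undifferentiated WT and at 0.588 and 0.589 in undifferentiated KO libraries. In differentiating cells it was at 1.44 and 1.42 RPKM in WT and 1.15 and 0.961 in KO libraries. KO was below WT within each state, without overlap, while differentiating KO lay above undifferentiated WT. The log2 fold change of KO against WT was -0.51 (95% interval -0.75 to -0.26, adjusted p = 0.014) and -0.41 (-0.65 to -0.16, adjusted p = 0.021). Over the mean of both states it was -0.46 (adjusted p = 0.0063), with adjusted p of at most 0.029 under every alternative run. Within a single state, leaving out 1 library gave adjusted p from 0.054 to 0.066 without any of the 4 undifferentiated libraries, and from 0.063 to 0.089 without either differentiating WT library or replicate 2 of differentiating KO. A fit of the differentiating libraries alone gave 0.083.

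Complete separation of the genotypes was also counted over genes too low for the fit. Of the 33 members above 0 in at least 1 library, 5 (15.2%) had all 4 KO libraries on one side of all 4 WT libraries, against 4.62% of all such genes. Besides *Tex11* and *Piwil4* these were *Stk31*, *Mov10l1* and *Tdrd1*. *Tdrd1*, a Tudor protein that organizes the piRNA machinery, was at 0.104 and 0.0998 RPKM in undifferentiated WT, 0.0575 and 0.0516 in undifferentiated KO, 0.143 and 0.0871 in differentiating WT and 0.0508 and 0.0560 in differentiating KO libraries. KO was thus the lower genotype. *Stk31* was the reverse, at 0.0147 to 0.0448 RPKM in WT libraries (3 to 7 reads) and 0.0478 to 0.118 RPKM in KO libraries (7 to 18 reads). For *Mov10l1* the separation rests on 0 to 1 read in WT and 1 to 3 reads in KO libraries. In reads the genotypes of both genes meet, at 7 for *Stk31* and at 1 for *Mov10l1*. Only the scaling by depth parts them there, so their separation is weak. Of the 5, 3 were higher and 2 lower in KO, so the separated members did not share a direction.

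Markers of other cells moved with genotype. Of 12 macrophage and leukocyte markers 7 were tested, and 2 in undifferentiated and 3 in differentiating cells were called lower in KO. Of all tested genes 1.7% and 3.3% were called in these comparisons, in either direction. The called markers were *Lyz2* and *Adgre1* in both states and *Itgam* in differentiating cells. Undifferentiated and differentiating KO means were 0.00672 and 0.0296 RPKM for *Adgre1* and 0.0321 and 0.0334 RPKM for *Itgam*. The WT means were 0.139 and 0.321 RPKM and 0.115 and 0.324 RPKM. Both genes passed the expression minimum through the WT groups, so they had to be high there to be tested. The summed level of the 12 markers was 17.8 and 18.5 RPKM in undifferentiated WT against 9.5 and 8.5 in KO, and 31.5 and 35.6 against 15.9 and 16.1 in differentiating cells. Most of that difference was *Lyz2*, at 12.8 and 13.4 against 3.43 and 3.19 RPKM in undifferentiated cells and 22.9 and 26.5 against 6.81 and 7.66 in differentiating cells. Without *Lyz2*, an alternative chosen after seeing the data, the sums were 4.97 and 5.07 RPKM in undifferentiated WT, 6.1 and 5.32 in undifferentiated KO, 8.58 and 9.18 in differentiating WT and 9.12 and 8.47 in differentiating KO libraries. *Cd14* was higher in KO in both states, by 0.78 and 0.46 on the log2 scale (adjusted p = 0.0046 and 0.020), and *Csf1r* in undifferentiated cells by 0.34 (adjusted p = 0.032). In differentiating cells *Csf1r* was lower in KO, at 0.405 and 0.352 RPKM against 0.710 and 0.698 in WT. The median log2 fold change of the 7 tested markers was -0.37 in undifferentiated and -0.75 in differentiating cells. *Cd3e*, *Ms4a1* and *S100a9* were listed at 0 in all libraries and *Ptprc*, the pan-leukocyte marker, did not exceed 0.127 RPKM. By the study's methods the MSCs had been depleted of cells with CD11b or CD45, the products of *Itgam* and *Ptprc*. The part of these cells in the lower values of *Piwil4*, *Tdrd1* and *Tex15* in KO was not tested. In RNA from whole cultures, fewer cells with a transcript and less of it per cell cannot be told apart.

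More members passed the test for osteogenic induction than for genotype. In WT MSCs 1 of 15 members was called, against 14.3% of all tested genes, and in KO MSCs 4 of 15, against 22.9%. Among those called higher, *Dmc1*, *Zp3* and *Ddx4* each had an undifferentiated group mean under 0.1 RPKM. They passed the expression minimum through groups in which they were higher, so these counts are not independent of that minimum. Without the fold limit, 6 of 15 in WT (64.4% of all genes) and 10 of 15 in KO (72.9%) had an adjusted p under 0.05. The members' share was below that of all genes in WT and near it in KO under both rules. The median log2 fold change of the 15 members was 0.39 in WT and 0.48 in KO cells, against 0.00 over all genes in both. With quantile normalization the medians were 0.00 and 0.13, and with no expression minimum they were 0.00 and 0.12, so the size of this shift depends on the scaling and on the members included.

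**Figure D4:**
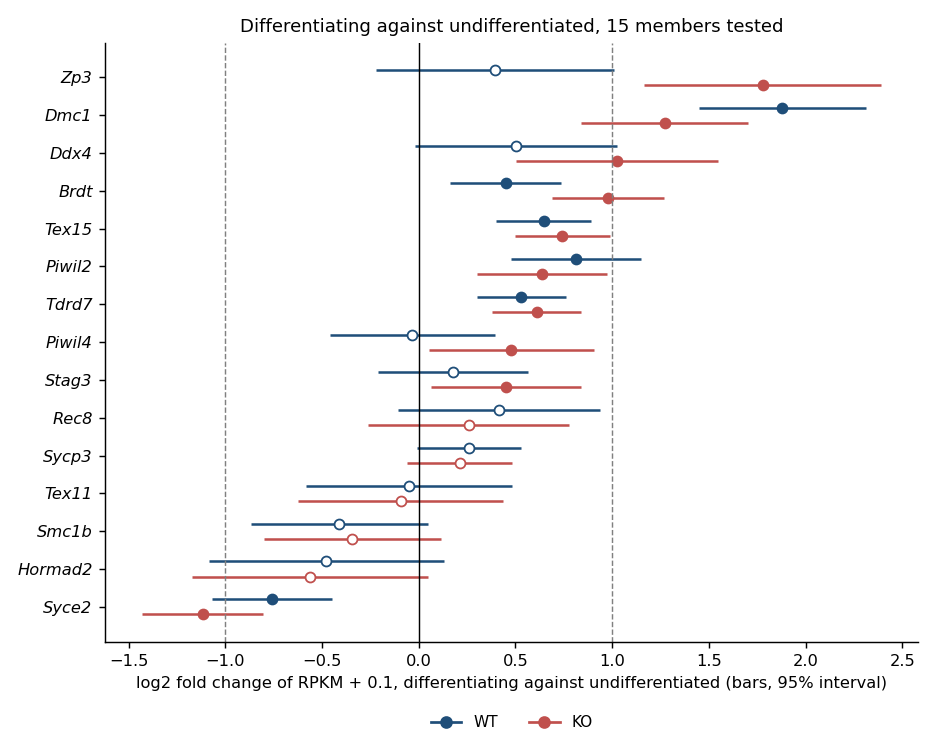
Log2 fold change of RPKM + 0.1 in differentiating against undifferentiated MSCs for the 15 members tested, in WT and KO cells, with 95% intervals from limma; filled points have an adjusted p under 0.05 and dashed lines mark the fold limit. Dmc1 passes the limit in both genotypes, Zp3, Ddx4 and Syce2 in KO cells.

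*Dmc1*, the meiotic recombinase that carries out strand exchange, rose in both genotypes. It was at 0.0807 and 0.0631 RPKM in undifferentiated WT, 0.0897 and 0.123 in undifferentiated KO, 0.598 and 0.472 in differentiating WT and 0.423 and 0.370 in differentiating KO libraries. Differentiating libraries were all above undifferentiated ones, by 7.44-fold in WT and 3.74-fold in KO means. The log2 fold change was 1.88 (95% interval 1.45 to 2.31, adjusted p = 2.1e-04) in WT and 1.27 (0.84 to 1.70, adjusted p = 8.0e-04) in KO. The undifferentiated WT mean of *Dmc1*, 0.0719 RPKM, was under the expression minimum, which the gene passed through groups in which it was higher. The difference of -0.61 between the genotypes did not pass the test (adjusted p = 0.10). Quantile normalization ended the call in KO (0.91), and so did adding 1 RPKM before the logarithm in both genotypes (0.52 in WT, 0.34 in KO).

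*Zp3*, a glycoprotein of the egg coat, rose on induction in KO cells. It was at 0.128 and 0.105 RPKM in undifferentiated WT, 0.0745 and 0.0181 in undifferentiated KO, 0.214 and 0.157 in differentiating WT and 0.445 and 0.344 in differentiating KO libraries. The undifferentiated KO libraries were the lowest and the differentiating KO libraries the highest of all 8. The reads were few, 4 and 1 against 25 and 19 in KO and 7 and 6 against 16 and 9 in WT. The log2 fold change was 1.78 (95% interval 1.16 to 2.39, adjusted p = 8.8e-04) in KO and 0.39 (-0.22 to 1.01, adjusted p = 0.21) in WT. The undifferentiated KO mean of *Zp3*, 0.0463 RPKM, was under the expression minimum, which the gene passed through groups in which it was higher. KO exceeded WT in differentiating cells by 0.79 (adjusted p = 0.049), a test that kept its side of the threshold in 8 of 16 alternatives. Without replicate 2 of differentiating WT the adjusted p was 0.19.

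The difference between the genotypes in the response to induction was tested as an interaction, with 1 of 15 members called, against 6.17% of all genes. That member was *Zp3* (1.38, 95% interval 0.51 to 2.25, adjusted p = 0.026). Without the fold limit 2 of 15 had an adjusted p under 0.05, against 39.4% of all genes, *Zp3* and *Brdt*. The call of *Zp3* was lost when replicate 1 or 2 of undifferentiated WT, replicate 2 of undifferentiated KO, replicate 2 of differentiating WT or replicate 1 of differentiating KO was left out, with adjusted p from 0.053 to 0.079. It was lost also with 0.01 added in place of 0.1 (adjusted p = 0.051) and with 1 added (log2 difference 0.33). *Brdt*, a bromodomain protein of spermatocytes, was at 0.465 and 0.458 RPKM in undifferentiated WT, 0.331 and 0.389 in undifferentiated KO, 0.697 and 0.638 in differentiating WT and 0.753 and 0.859 in differentiating KO libraries. It rose by 0.45 (adjusted p = 0.016) in WT and by 0.98 (adjusted p = 4.1e-04) in KO on the log2 scale. The difference of 0.53 had an adjusted p of 0.049, which rose to between 0.055 and 0.13 when any library other than replicate 1 of differentiating KO was left out. It was 0.053 to 0.12 under 4 settings of the processing: median centring, no expression minimum, the higher minimum of 0.5 RPKM and a replicate block.

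*Ddx4* was called in KO cells. It was at 0.0475 and 0.0455 RPKM in undifferentiated WT, 0.0565 and 0.0471 in undifferentiated KO, 0.135 and 0.0832 in differentiating WT and 0.240 and 0.181 in differentiating KO libraries. All differentiating libraries were above all undifferentiated ones, and both KO values were above both WT values after induction. The log2 fold change was 1.03 (95% interval 0.50 to 1.55, adjusted p = 0.0051) in KO and 0.50 (-0.02 to 1.02, adjusted p = 0.082) in WT. The interaction of 0.52 did not pass the test (adjusted p = 0.22). The call in KO was lost without replicate 2 of undifferentiated KO (0.98), with quantile normalization (0.64) and with 1 RPKM added (0.20). The mean of *Ddx4* over all libraries, 0.104 RPKM, passes the minimum through differentiating KO, so the gene had to be high there to be tested. Without either differentiating KO library it falls under the minimum and gives no value, and it is 1 of the 4 members counted as called in KO.

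*Syce2* moved the other way. It was at 4.24 and 4.65 RPKM in undifferentiated WT, 5.09 and 4.12 in undifferentiated KO, 2.45 and 2.72 in differentiating WT and 2.22 and 1.90 in differentiating KO libraries. All differentiating libraries were below all undifferentiated ones. The log2 fold change was -0.76 (adjusted p = 0.0026) in WT and -1.12 (adjusted p = 3.2e-04) in KO, and only the latter was called. Without replicate 1 of undifferentiated KO it was -0.97 and under the limit. The overlapping gene *Gcdh* rose over the same libraries, from 10.5 to 13.1 RPKM before to 17.4 to 20.4 RPKM after induction.

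**Figure D5:**
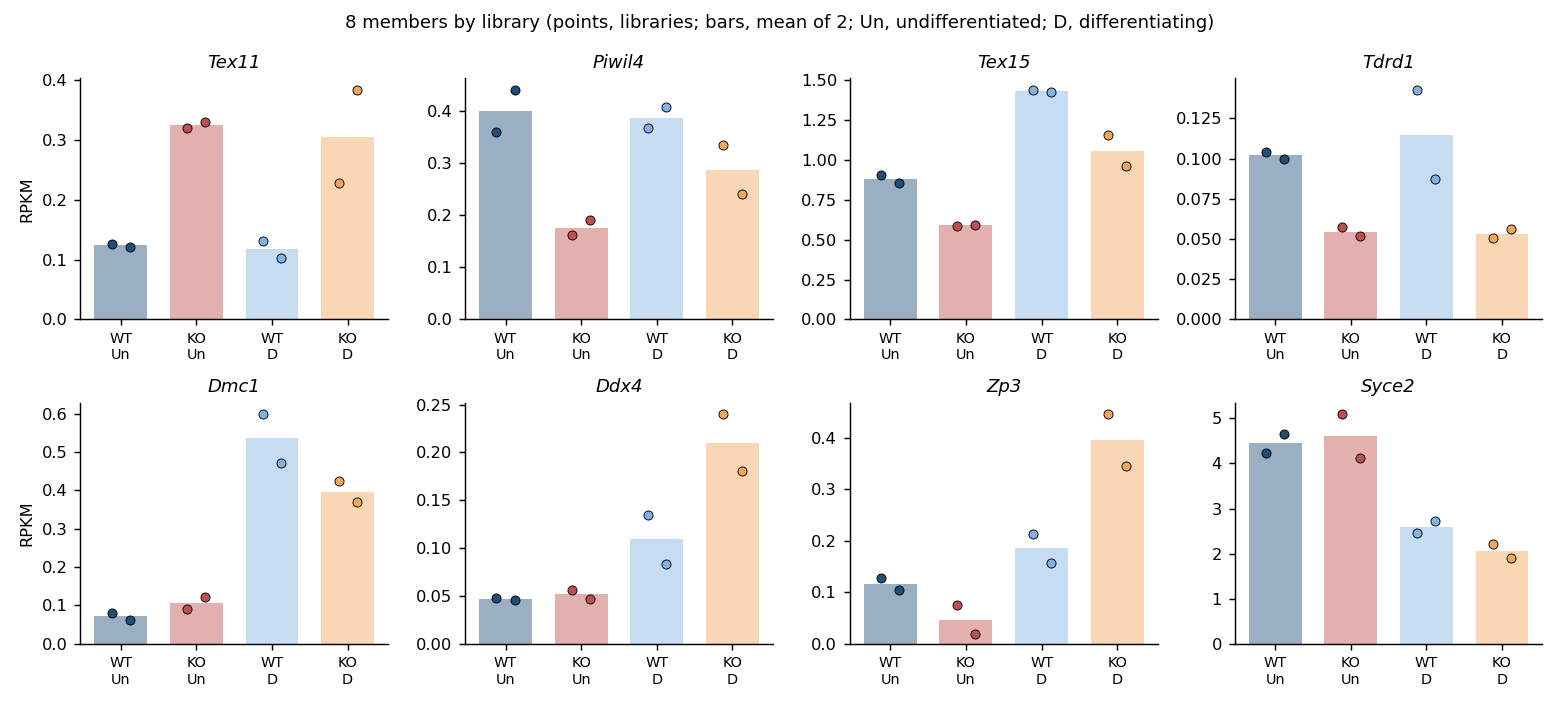
RPKM of 8 members by library: points are libraries and bars the mean of the 2 libraries of a group, WT and KO, undifferentiated (Un) and differentiating (D), each panel with its own axis from 0. Tex11 is higher and Piwil4 and Tdrd1 are lower in all 4 KO libraries than in all 4 WT libraries, Dmc1 and Ddx4 are higher and Syce2 is lower in all differentiating than in all undifferentiated libraries.

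Further members rose on induction by less than the fold limit. *Tex15* rose by 0.65 in WT (adjusted p = 0.0018) and 0.74 in KO (adjusted p = 7.0e-04), *Piwil2* by 0.81 (adjusted p = 0.0026) and 0.64 (adjusted p = 0.0059), and *Tdrd7* by 0.53 (adjusted p = 0.0033) and 0.61 (adjusted p = 0.0013). In KO cells *Piwil4* rose by 0.48 (adjusted p = 0.046) and *Stag3*, a cohesin subunit, by 0.45 (adjusted p = 0.041), and both missed the threshold with quantile normalization (adjusted p = 0.54 and 0.65) and without any library other than replicate 2 of differentiating KO (0.054 to 0.17). *Stag3* was at 0.232 and 0.223 RPKM in undifferentiated WT, 0.221 and 0.255 in undifferentiated KO, 0.266 and 0.275 in differentiating WT and 0.419 and 0.311 in differentiating KO libraries. *Sycp3*, *Hormad2*, *Rec8* and *Smc1b* had an adjusted p above 0.05 in every comparison. *Sycp3* was at 0.775 and 0.806, 0.790 and 0.834, 1.01 and 0.931, and 0.864 and 1.05 RPKM in the same order.

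Cell division and cell type markers moved with induction too. Of 15 proliferation genes 2 were called lower and 1 higher in WT and 14 lower in KO on induction, and 10 were called lower in differentiating KO than in differentiating WT cells. Of all tested genes 14.3% were called on induction in WT, 22.9% in KO, and 3.3% between the genotypes in differentiating cells. Their summed level was 340.8 and 346.7 RPKM in undifferentiated WT, 482.0 and 482.2 in undifferentiated KO, 280.7 and 300.8 in differentiating WT and 164.4 and 131.9 in differentiating KO libraries, with none of the 15 at 0 in all libraries. All 5 tested adipocyte markers were called higher in WT and 4 in KO, and the 6 markers together went from 46.5 to 55.0 RPKM before to 358.8 to 391.5 RPKM after induction. Most of that sum was *Fabp4*, at 36.5 to 43.6 RPKM before and 324 to 357 RPKM after induction. The part of cell division and of these cells in the changes of the members, including the fall of *Syce2*, was not tested.

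The other genes of the pathway were counted from lists of germline genes and of their silencers. Of 65 further germline genes 58 were in the table, 8 of them at 0 in all libraries, and 25 were tested. In undifferentiated cells 1 was called higher in KO and none lower, in differentiating cells 1 higher and 1 lower. Of all tested genes 1.7% and 3.3% were called in these comparisons. *Slc25a31*, an ADP/ATP carrier of sperm cells, was called in both states, at 0.117 and 0.0102 RPKM in undifferentiated WT, 0.402 and 0.306 in undifferentiated KO, 0.0703 and 0.0917 in differentiating WT and 0.364 and 0.487 in differentiating KO libraries. All 4 KO libraries were above all 4 WT libraries, with log2 fold changes of 1.55 (adjusted p = 0.020) and 1.53 (adjusted p = 0.016). Its WT group means, 0.0638 and 0.0810 RPKM, were under the expression minimum of 0.1 RPKM. The gene passed that minimum through the KO groups, so it had to be high there to be tested. *Prm1*, a protamine that packs sperm DNA, was called lower in differentiating KO, where both libraries were listed at 0. The differentiating WT libraries were at 0.380 and 0.198 RPKM, and the undifferentiated KO libraries at 0.211 and 0. This call rests on low values and on exact zeros, which can be failed estimates. On induction 2 of the 25 were called higher and 2 lower in each genotype, against 14.3% of all tested genes called in WT and 22.9% in KO. *Bmp15*, an oocyte growth factor, rose from 0.0213 to 0.0634 RPKM before to 0.543 to 0.788 RPKM after, and *Hsf2bp*, a meiotic partner of BRCA2, from 0.0611 to 0.197 to between 0.387 and 0.481 RPKM. For *Bmp15* the expression minimum was passed through the differentiating groups, so it had to be high there to be tested. *Psmc3ip*, a cofactor of DMC1, fell in both genotypes.

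All 26 genes known to silence germline genes were in the table and tested. In undifferentiated cells 1 was called lower in KO, the knocked-out gene *Dnmt3l* itself, against 1.7% of all tested genes called. In differentiating cells 3 were called lower, against 3.3% of all tested genes called. The others were *Uhrf1*, which brings DNMT1 to newly copied DNA (-1.54, adjusted p = 0.0052), and *Hells*, a chromatin remodeler needed for DNA methylation (-1.08, adjusted p = 0.0012). *Uhrf1* was at 10.9 and 11.0 RPKM in undifferentiated WT, 14.8 and 15.0 in undifferentiated KO, 4.85 and 5.70 in differentiating WT and 2.33 and 1.29 in differentiating KO libraries. The undifferentiated KO libraries were the highest and the differentiating KO libraries the lowest, the order that the summed proliferation genes had. On induction 2 of the 26 were called lower in WT and 4 in KO, and none higher. Of all tested genes 14.3% and 22.9% were called. *Dnmt1*, the maintenance methyltransferase, was 1 of the 4 in KO (-1.25, adjusted p = 3.4e-06), from 21.4 and 21.3 to 9.28 and 8.60 RPKM.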

How the data were processed

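RNA libraries of MSCs (8 libraries, 2 in each of 4 groups) were assigned to groups by the sample labels. The authors removed ribosomal RNA, prepared stranded libraries, sequenced single-end reads of 50 bases and, per the labels, used TopHat2 2.1.0, Cuffdiff and Cufflinks 2.2.1 with mm10. The table that the authors deposited gives 1 RPKM value for each gene in each library. Depth is not given by RPKM and was estimated from read steps, with about 202 nt subtracted from transcript lengths, and intervals cover these libraries only.

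From there log2(RPKM + 0.1) was fitted in R 4.3.3 by limma 3.58.1, with all 8 libraries, a mean for each group and a variance trend (4 residual and 1.98 prior degrees of freedom). P-values were adjusted over all 15342 tested genes with the Benjamini-Hochberg method. The fit was tested on simulated data. Positions came from GENCODE vM21. Python 3.11.15, numpy 2.4.6, pandas 2.3.3 and matplotlib 3.10.9 were used. The members and lists were chosen with earlier results of these data known. All members are named, with values in every library for those with an adjusted p under 0.05 or a level of at least 0.5 RPKM, and for at most 5 called genes of another list. Genes chosen after their values were seen were *Dazl*, *Stk31*, *Tdrd1*, *Mov10l1*, *Lyz2*, *Cd14*, *Csf1r*, *Fabp4* and the overlapping genes, and so were the 6 promoter stretches. Alternatives covered the pseudocount, the expression minimum, scaling, the fold limit, a fit with no variance trend, a replicate block, a fit of the compared libraries alone and the loss of each library in turn. No count test was run, since the values are not counts. Some genes of the other lists are not reported here.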

Additional observations from a re-analysis of the deposited data

Results flagged for a closer look

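The response to induction differed between the genotypes for 2 of the 15 tested members by the interaction term in limma, with 2 libraries in each group. At the same adjusted p under 0.05, 39.4% of all tested genes differed, a larger share. With the fold limit it was 1 of 15 members against 6.17% of all tested genes. For *Zp3* the log2 change in KO exceeded that in WT by 1.38 (adjusted p = 0.026), with both differentiating KO libraries above both differentiating WT libraries. For *Brdt* it exceeded that in WT by 0.53 (adjusted p = 0.049), which is under the fold limit. Leaving out 1 library ended the significance of *Zp3* for 5 of the 8 libraries and of *Brdt* for all but replicate 1 of differentiating KO, and *Brdt* kept an adjusted p under 0.05 in 5 of 16 alternatives. Groups of 2 libraries were too small to look for an outlying library.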

How the results depend on the processing

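The numbers of members called between the genotypes were 0 and stayed 0 under the other alternatives run except these. Without the fold limit there were 3 in undifferentiated, 3 in differentiating and 3 over both states. With a pseudocount of 0.01 there were 2, 1 and 1. Leaving out a library gave 0 in undifferentiated cells and 0 to 1 in differentiating cells and over both states, the 1 being *Tex11* without replicate 1 of differentiating KO. For induction in WT, 6 were called without the fold limit and 0 with a pseudocount of 1 or a mean of at least 0.5 RPKM, and 1 whichever library was left out. In KO, 10 were called without the fold limit, 0 with a pseudocount of 1, 1 with a mean of at least 0.5 RPKM and 2 with quantile normalization, and 3 to 4 with a library left out. The higher minimum tests 6 members only. For the interaction, 2 were called without the fold limit, 0 with a pseudocount of 0.01 or 1 or the higher minimum, and 0 to 1 with a library left out. The cause was not tested in the other cases. The members detected in both libraries were 4 above 0.5 RPKM and 2 above 1 RPKM in undifferentiated WT and in undifferentiated KO, 6 and 3 in differentiating WT and 6 and 2 in differentiating KO. Taking 1 library alone gave 14 in undifferentiated WT, 12 in undifferentiated KO, 12 to 16 in differentiating WT and 13 to 15 in differentiating KO. No log2 fold change of a member with an adjusted p under 0.05 changed sign. Replicate numbers did not pair the libraries (correlations of deviations from -0.09 to 0.03). With a replicate block the members called were 0, 0 and 0 between the genotypes, 1 in WT, 4 in KO and 1 for the interaction. Depth limits the values of the 12 members with at most 10 reads in every library.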
